A study of Mus musculus with 12 samples.

Results

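Cells that met a rule for classical monocytes built on Ly6c2 were described here, and 242 of the 126095 cells kept from the stromal vascular fraction (SVF) of mouse white fat met it, which is 0.192%. The rule read the unique molecular identifiers (UMIs, each an RNA molecule counted once) of single barcodes. A cell needed at least 1 UMI of Ly6c2, 1 of Plac8 or Chil3, 2 of Lyz2 and 1 of Csf1r or Ccr2, and no UMI of Cd3d, Cd3e, Cd3g, Flt3 or Lyve1. Barcodes outside 700 to 22000 UMIs or 200 to 6000 genes, or with 25% or more of their UMIs from mitochondrial genes, had been dropped. Since the cells were chosen by measured UMIs, the levels of the genes in the rule are given as a description, without a test. As shown in the next paragraphs, the data went in part against the name monocyte, so these cells are called Ly6c2-gated cells.

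Single-cell RNA sequencing covered epididymal (eWAT) and inguinal (iWAT) white adipose tissue of male mice aged 12 weeks, with 12 libraries in 6 groups of 2 biological replicates. The groups of each depot were lean C57BL/6J mice given vehicle (WT-Veh), Lepob/Lepob mice given vehicle (ob/ob-Veh) and Lepob/Lepob mice given rosiglitazone at 30 mg/kg (ob/ob-Rosi). All mice were gavaged every morning and evening for 3 days, with methylcellulose in medium as the vehicle, and no lean mice given rosiglitazone were sequenced here. Rosiglitazone is an agonist of PPARγ, and Lepob/Lepob mice lack working leptin and become obese. The SVF was what remained of 300 mg of fat after 40 min of collagenase digestion and removal of floating adipocytes. The labels do not say whether the eWAT and iWAT libraries with the same number came from the same mouse, and p-values measure the spread between these libraries.

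Classical monocytes leave the bone marrow through the chemokine receptor Ccr2, circulate in blood and enter inflamed or expanding fat, where they become macrophages. In the mouse they carry the surface protein Ly6C, encoded by the neighbouring genes Ly6c1 and Ly6c2, together with Plac8, the chitinase-like protein Chil3 and the matrix and plasma proteins Vcan, Thbs1, F13a1 and Hp. As they become macrophages they lose these transcripts and gain complement C1q, MHC class II or, in obese fat, genes of lipid uptake such as Trem2 and Gpnmb.

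The libraries held 20132553 to 92475986 UMIs, and the median kept cell of a library held 1132 to 4961. Replicates of a group differed far beyond sampling noise, and no pair of libraries shared more than 1.05% of the barcodes of the smaller one. The deposited iWAT barcodes had been filtered before deposit, with none above 22000 UMIs or at 25% mitochondrial UMIs or more, which cannot be told apart from the depot. Lep, which carries a base change in Lepob/Lepob mice and is still counted at its 3-prime end, does not check the genotype. It had 36 and 153 UMIs in eWAT labelled WT-Veh, 8 and 60 in ob/ob-Veh and 75 and 318 in ob/ob-Rosi, so the groups are named by their labels throughout.

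Most of the gated cells stood close to the threshold. Ly6c2 was at 1 UMI in 152 of the 242 cells (62.8%), at 2 in 32 and at 3 or more in 58, with a highest value of 24. Just outside the rule lay 3458 cells that met every other condition and held 0 Ly6c2 UMIs. Chil3 had a UMI in 139 gated cells, and the other 103 entered through Plac8 alone. Ccr2 was at a median of 2 UMIs, Csf1r at 1 and Lyz2 at 26.5. The Lyz2 condition was met by 81941 of all 126095 kept cells and Csf1r or Ccr2 by 62501, so these conditions alone took cells of every class, and the Ly6c2 condition, met by 5331 cells, was the one that set the number.

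Ly6c2 itself was highest outside the myeloid cells. In CPM, the summed UMIs of a gene scaled to the same total of UMIs for every class or library, cells gated as T and NK (2 or more UMIs over Cd3d, Cd3e, Cd3g and Nkg7) were at 547 CPM, and 38.0% of them held a Ly6c2 UMI at a median depth of 1933 UMIs. Among the 3700 cells that met the other 6 conditions, 6.54% held one, at a median depth of 4253.5 UMIs and a level of 26.7 CPM. The share was 4.23% in all kept cells, and among cells gated by markers of other lineages it was 1.71% in stromal cells (Pdgfra, Col1a1, Col1a2, Dcn), 2.57% in endothelial cells (Pecam1, Cdh5, Cldn5) and 6.44% in B cells (Cd79a, Cd79b, Ms4a1). It was 4.57% in macrophages with C1q or Adgre1, 7.48% in neutrophils and 7.24% in cells of no gate. It was 1.46% in lipid-associated macrophages (Trem2, Gpnmb) and 1.22% in perivascular macrophages (Lyve1, Cd163, Folr2). After every cell was thinned to 700 UMIs, 2.30% of the cells that met the other conditions held a Ly6c2 UMI, and 2.26% of all kept cells did. After thinning T and NK cells were at 23.5%, cells of no gate at 5.48%, neutrophils at 5.14%, B cells at 2.62% and macrophages with C1q or Adgre1 at 2.48%, while stromal cells were at 0.633%, endothelial cells at 0.708%, lipid-associated macrophages at 0.410% and perivascular macrophages at 0.440%.

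**Figure D1:**
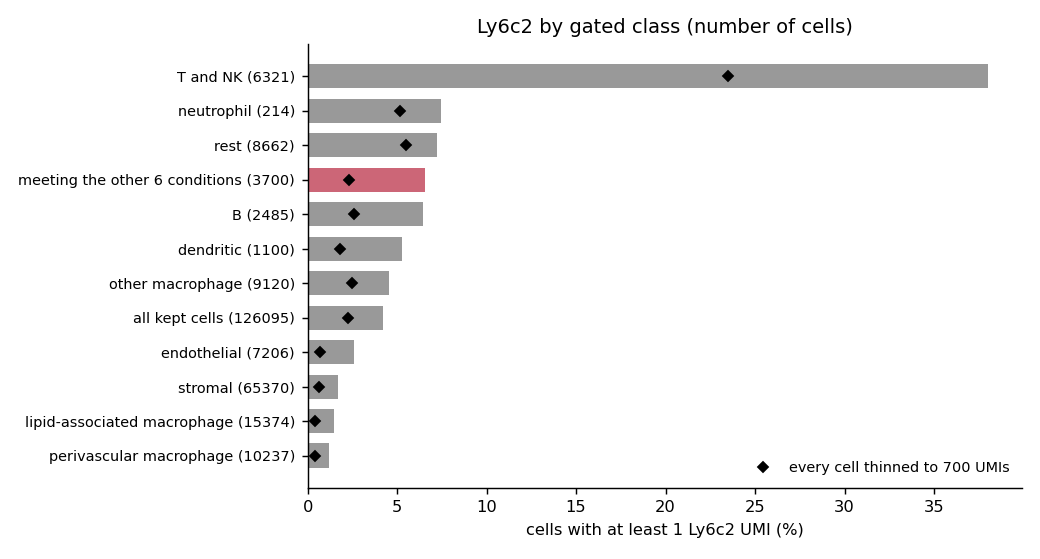
Share of cells with at least 1 Ly6c2 UMI (bars, in %) in each gated class and in the cells that met the other 6 conditions (red bar), with the share after every cell was thinned to 700 UMIs (diamonds); numbers of cells stand beside the names. T and NK cells are at 38.0%, the cells that met the other conditions at 6.54% and stromal cells at 1.71%.

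The share varied between libraries. In eWAT labelled ob/ob-Veh replicate 1, 19.9% of the cells that met the other conditions held a Ly6c2 UMI, against 1.79% to 8.62% in the other 11 libraries. Ly6c2 lies on chromosome 15 of GRCm38 (mm10), from 75108158 to 75111970 on the minus strand, and its near copy Ly6c1 from 75044018 to 75048830 on the same strand. Ly6c1 was at 2147 CPM in endothelial cells and at 535 CPM in stromal cells, where Ly6c2 was at 8.39 and 5.19 CPM. Whether reads of the 2 genes were exchanged was not tested, and the Ly6c2 counts of cells rich in Ly6c1 are uncertain for that reason.

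When the gates of the other classes were applied to the 242 cells, 123 (stromal 88, T and NK 20, endothelial 11, B 4) also met the gate of a lineage other than myeloid. Of the remaining 119, 75 met the gate of macrophages with C1q or Adgre1, 25 that of lipid-associated macrophages and 5 that of perivascular macrophages, and 14 met none. Over a longer list of other-lineage markers, 182 of the 242 held 2 or more UMIs. The cells in another lineage's gate were deeper, with a median of 5380 UMIs against 3163 in the rest. Whether these barcodes hold 2 cells, free RNA or cells of another type was not tested, and no doublets were removed. Of the cells that met every condition but Ly6c2, 1468 of 3458 stood outside another lineage's gate, beside the 119 of 242.

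The 20 cells in the T and NK gate entered it through Nkg7, a granule protein of cytotoxic cells, since the rule excludes Cd3. Of them 15 held 2 or more Ly6c2 UMIs and 5 held Chil3. Of 14 monocyte markers that the rule did not use, they held a median of 3.5. The 75 cells in the gate of macrophages with C1q or Adgre1 held a median of 7, with Chil3 in 56, and the 88 in the stromal gate a median of 6, with Chil3 in 46. What part of these counts came from stromal RNA was not tested. In the cells that met every condition but Ly6c2, leaving out other lineages' gates lowered Vcan from 6.56% to 3.81% after thinning. Fn1 fell from 42.7% to 30.2%, while Thbs1, Hp, Gsr, Ms4a4c, F13a1 and Ccl9 rose. In eWAT, 1 barcode of WT-Veh replicate 2 and 1 of ob/ob-Veh replicate 1 carried the plasma-cell transcript Igkc, at 6437 and 1847 UMIs. These 2 barcodes account for the Igkc of 99424 and 8782 CPM in the gated cells of those libraries. The values of all other libraries lay at 0 to 149.6 CPM.

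**Figure D2:**
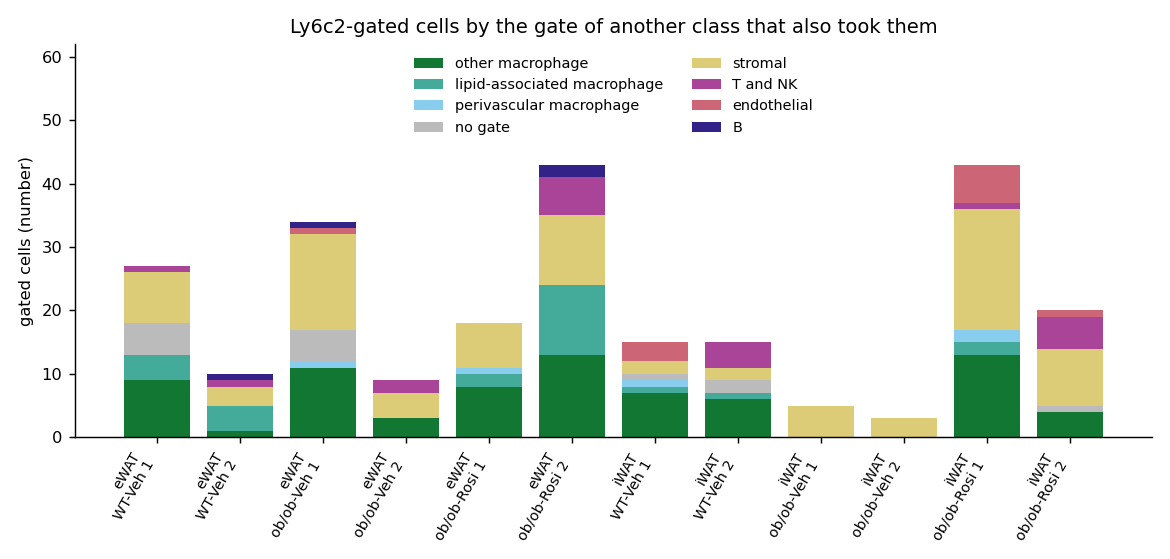
Number of Ly6c2-gated cells in each library, split by the gate of another class that also took them (colours). Stromal gates took 88 of the 242 cells, and all 8 cells of the iWAT libraries labelled ob/ob-Veh stand in the stromal gate. Gated cells aside, that gate took 6610 of 7205 and 6284 of 7203 kept cells of these iWAT libraries.

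Pooled over the libraries, several monocyte markers outside the rule were more frequent in the gated cells than in the cells with 0 Ly6c2 UMIs that met the other conditions. Every cell was thinned to 700 UMIs for this comparison, and since the choice of cells fixes part of it, it was not tested. Thbs1, a matrix protein of platelets and monocytes, had a UMI in 34.3% of the gated cells and in 13.2% of the others. Gsr, glutathione reductase, was in 20.7% and 10.0%, and Hp, haptoglobin, in 14.05% and 7.49%. The proteoglycan Vcan was in 17.8% and 6.56%. Ms4a4c, a membrane protein of the MS4A family, was in 9.504% and 1.91%. Without thinning, Ms4a4c stood at 29.8% and 6.88%, at median depths of 4132 and 4268.5 UMIs, and was more frequent in the gated cells of every library. Thbs1, Hp and Gsr were so in most libraries. In eWAT ob/ob-Veh replicate 2 they were not, with Thbs1 in 11.1% against 20.1% and Hp in 0% against 29.2%. Vcan was less frequent in the gated cells of WT-Veh replicate 2 and ob/ob-Veh replicate 2 in both depots, and of iWAT ob/ob-Veh replicate 1 and ob/ob-Rosi replicate 2. Mmp8 and Cd177, granule and surface proteins also made by neutrophils, were in 5.79% and 6.20% of the gated cells and in 0.434% and 1.30% of the others.

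Fn1, Ccl9 and F13a1 of the list were more frequent in the gated cells by a smaller factor. Fn1 was in 52.1% of the gated cells and 42.7% of the others, Ccl9 in 40.5% and 36.6%, and F13a1 in 23.6% and 17.8%. Shares of Mgst1, Ifitm6, Ly6i, Clec4e and Smpdl3a are not given. Ly6i had no UMI in the gated cells of any eWAT library but WT-Veh replicate 1 and ob/ob-Veh replicate 1. In iWAT WT-Veh replicate 1, Mgst1, Ifitm6 and Ly6i had none. The gated cells kept macrophage transcripts, with C1qa in 19.4% against 36.5%, Trem2 in 12.0% against 21.2% and Apoe in 79.3% against 80.5%. S100a8 and S100a9, which were listed here as neutrophil markers but are not read as particular to neutrophils, were nearly absent, with a UMI in 7 and 2 of the 242 cells. The median gated cell held 6 of the 14 markers outside the rule, within a range of 0 to 13, and the median cell with 0 Ly6c2 UMIs held 4.

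Cells with more Ly6c2 UMIs held some of these markers more often and others not, and the median without thinning was 6 of 14 markers both with 1 Ly6c2 UMI and with 2 or more. Among the 90 cells with 2 or more, Thbs1 was in 44.4% and Mmp8 in 11.1%, and among the 152 with 1 UMI in 28.3% and 2.63%. Fn1 was in 51.1% and 52.6%, and Ccl9 in 40.0% and 40.8%. Without thinning, 67.8% of the cells with 2 or more Ly6c2 UMIs and 69.1% of those with 1 held 5 or more of the 14 markers, and after thinning the mean was 3.09 and 2.55 markers. C1qa was in 16.7% and 21.1%, and Trem2 in 4.44% and 16.4%. Nkg7 was in 15.6% and 1.97%, and 15 of the 20 cells in the T and NK gate are among the 90. Among the 119 cells in no other lineage's gate, Thbs1 was in 40.3% and Chil3 in 56.3%.

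**Figure D3:**
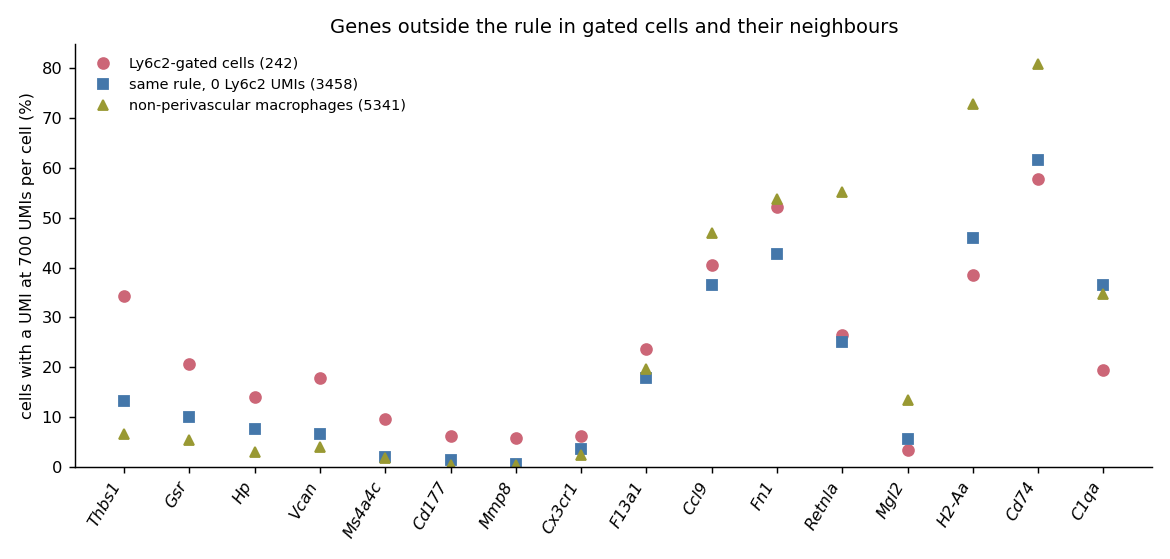
Share of cells (in %) with a UMI of genes outside the rule after thinning to 700 UMIs, in the 242 gated cells, in 3458 cells that met the rule but for Ly6c2, and in 5341 non-perivascular macrophages. The gated cells are highest for Thbs1 (34.3%), Gsr, Hp, Vcan and Ms4a4c, and lowest for C1qa (19.4%).

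The gated cells were set beside non-perivascular macrophages, and 5341 cells met the gate of these (Ear2 or Ccr2, Lyz2 and C1q or Adgre1, without Ly6c2, Trem2, Lyve1, Cd163, Flt3 or Cd3). UMIs were summed per library and class, and genes of both gates were left out. As the gates are correlated with other genes, the calls of edgeR are given as a description. In eWAT, on WT-Veh replicate 1, ob/ob-Veh replicate 1 and ob/ob-Rosi replicate 2, the libraries with 20 or more gated cells, 104 of 7685 genes (1.35%) passed the limits, an adjusted p of at most 0.05 and a 1.1-fold change, with 33 (0.429%) higher and 71 (0.924%) lower in the gated cells. In iWAT, on both ob/ob-Rosi libraries alone, 112 of 8919 (1.26%) did, with 51 (0.572%) higher and 61 (0.684%) lower. Without eWAT WT-Veh replicate 1, 8 genes passed in eWAT, 1 higher and 7 lower.

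The classical monocyte list was higher in the gated cells for 6 of 13 genes in each depot, among them Gsr, Hp, Ms4a4c, Thbs1 and Vcan in both. By edgeR 0 of 13 were lower, and without eWAT WT-Veh replicate 1 at most 1 of the eWAT calls of this list could remain. Not every gene of the list stood higher. Over all libraries and without a test, Fn1 was at 1919 CPM in the gated cells and 3558 in the macrophages. After thinning it had a UMI in 52.1% and 53.9%. Ccl9 was at 1321 and 1253 CPM, but after thinning had a UMI in 40.5% and 46.9%. F13a1 was at 344 and 316 CPM. The median log2 fold change of the list was 0.57 in eWAT and 0.77 in iWAT, against -0.05 and -0.04 over all genes. Thbs1 averaged 1323 CPM in the gated cells and 248 CPM in the macrophages in eWAT, and 891 and 122 in iWAT. Hp averaged 274 and 67.7 CPM in eWAT, and 279 and 42.7 in iWAT. Lst1 was also higher in both depots.

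MHC class II genes, which present antigen to CD4 T cells, lay lower in the gated cells, 7 of 9 in eWAT and 5 of 9 in iWAT. Their list medians were -1.94 and -2.07 on the log2 scale. H2-Eb1 averaged 1166 CPM in the gated cells and 4364 CPM in the macrophages in eWAT, and 1158 and 4103 in iWAT. Cd74, the invariant chain, averaged 4222 and 13578 CPM in eWAT. Retnla, a secreted protein of alternatively activated macrophages, averaged 1013 and 6709 CPM in eWAT and 1160 and 7384 in iWAT, and Lyz1 and Mgl2 were lower as well. With cells of every gate kept, those that met the rule but for Ly6c2 stood near the gated cells here. Over all libraries, Cd74 was at 4908 CPM in the gated cells, 5320 in those and 11919 in the macrophages. H2-Aa was at 2046, 2255 and 5261, and Retnla at 1337, 1324 and 8653. Among cells in no other lineage's gate, the gated cells stood below the cells with 0 Ly6c2 UMIs. Cd74 was at 5084 and 8510 CPM there, H2-Aa at 1873 and 3562, and Retnla at 990 and 1551. Whether these levels are particular to cells with Ly6c2 was not tested. In iWAT 4 of 5 genes of the T and NK list (Ccl5, Gzma, Il2rb and Nkg7) were higher in the gated cells, and 6 of the 63 cells of these libraries stood in the T and NK gate. In eWAT the cytokine and NF-κB list had 1 gene higher, Osm, and 6 lower, among them Cxcl2, Icam1, Nfkbia and Tnfaip3.

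The share of gated cells was then compared between groups. In eWAT, 27 and 10 cells were gated in the libraries labelled WT-Veh, which is 0.183% and 0.155% of their kept cells. The numbers were 34 and 9 in ob/ob-Veh (0.371% and 0.116%) and 18 and 43 in ob/ob-Rosi (0.191% and 0.427%). The replicates labelled ob/ob-Veh lay apart, with 95% Wilson intervals, which cover counting error only, of 0.266% to 0.518% and of 0.0611% to 0.221%, so this group overlapped both others. Both ob/ob-Rosi shares lay above both WT-Veh shares, though closely for 0.191% and 0.183%.

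In iWAT, WT-Veh libraries held 15 and 15 gated cells (0.0879% and 0.152%), ob/ob-Veh libraries 5 and 3 (0.0694% and 0.0416%) and ob/ob-Rosi libraries 43 and 20 (0.444% and 0.114%). The ob/ob-Veh shares lay below the 4 others, and the ob/ob-Rosi shares overlapped those of WT-Veh. All 8 iWAT ob/ob-Veh cells were in the stromal gate, so none remained once cells of other lineages' gates were left out, while 10 and 9 remained in WT-Veh and 17 and 5 in ob/ob-Rosi. Gated cells aside, the stromal gate took 6610 of 7205 and 6284 of 7203 kept cells in iWAT ob/ob-Veh. It took 2830 of 17063 and 3620 of 9837 in WT-Veh, and 5722 of 9674 and 9851 of 17500 in ob/ob-Rosi.

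No share passed the main test, edgeR's quasi-likelihood test on numbers of cells with Benjamini-Hochberg adjustment over classes. The log2 differences in eWAT were 0.52 ± 0.74 (SE) for ob/ob-Veh against WT-Veh, with an adjusted p of 0.685, 0.33 ± 0.73 for ob/ob-Rosi compared with ob/ob-Veh (adjusted p = 0.888 by edgeR), and 0.86 ± 0.74 for ob/ob-Rosi against WT-Veh (0.841). In iWAT they were -1.08 ± 1.09 (0.326), 2.29 ± 1.08 (0.0920) and 1.21 ± 0.98 (0.528) in the same order. The exact permutation test of 2 against 2 libraries cannot go below 0.333 and gave 0.333 for the iWAT share of ob/ob-Rosi set against that of ob/ob-Veh. It also gave 0.333 for ob/ob-Veh against WT-Veh in iWAT and for ob/ob-Rosi against WT-Veh in eWAT.

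Without the cells in another lineage's gate, both iWAT differences passed edgeR, on 0 cells in ob/ob-Veh. Taking 3 cells over the group as the limit that a count of 0 allows, the WT-Veh share was at least 3.39-fold higher (adjusted p = 0.0128, edgeR) and the ob/ob-Rosi share at least 3.89-fold higher (adjusted p = 0.00873, edgeR). This setting was chosen after the data had been seen. It leaves out every cell of the stromal gate, which took most kept cells of the iWAT ob/ob-Veh libraries. Its bounds cannot be told apart from the stromal share of the libraries. The same holds for the planned setting given next, whose markers include those of the stromal gate. In the planned setting without barcodes holding 2 or more other-lineage UMIs, 12 cells were left in WT-Veh, 0 in ob/ob-Veh and 6 in ob/ob-Rosi. The WT-Veh share was then at least 2.14-fold higher (adjusted p = 0.0224, edgeR), and the ob/ob-Rosi share, at least 1.06-fold higher, did not pass (adjusted p = 0.126, edgeR). With DESeq2 in place of edgeR the ob/ob-Rosi share passed with all cells kept, at a log2 difference of 2.31 and an adjusted p of 0.0282. After thinning to 700 UMIs before gating, 2 and 1 cells were left in ob/ob-Veh and 9 and 0 in ob/ob-Rosi, and the log2 difference was 0.99 (adjusted p = 0.588, edgeR).

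**Figure D4:**
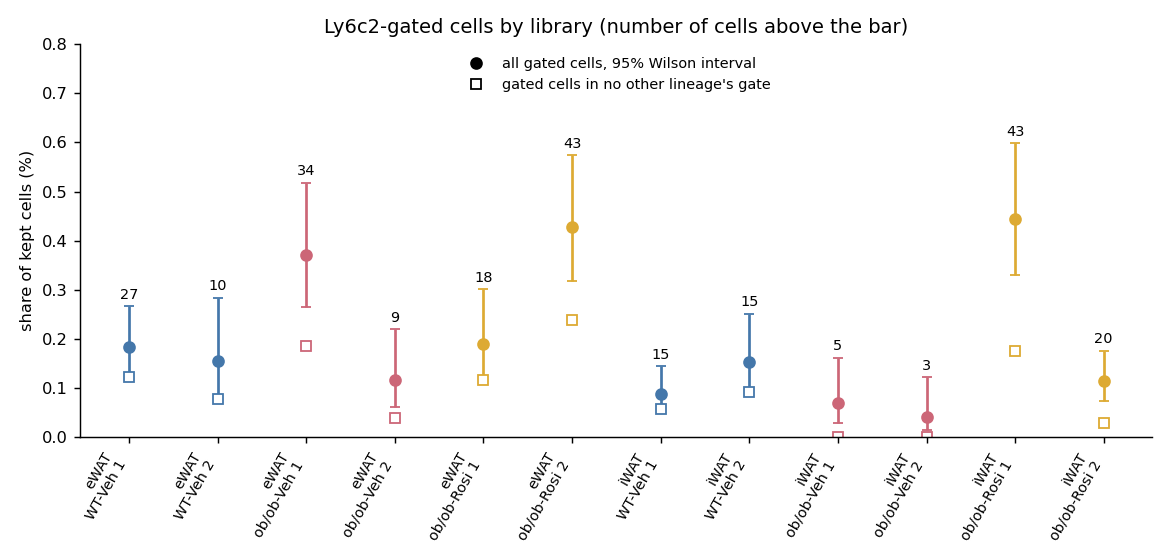
Ly6c2-gated cells as a share of kept cells (in %) in each library, with 95% Wilson intervals and the number of cells above (dots), and the share left outside other lineages' gates (squares). The iWAT libraries labelled ob/ob-Veh have 5 and 3 cells, all in the stromal gate, which took most kept cells of these libraries. Replicates of a group differ most in iWAT ob/ob-Rosi, at 0.444% and 0.114%.

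Among the genes of the rule, Chil3 varied widely between libraries. In eWAT its level was 3711 and 324 CPM in WT-Veh, 546 and 81.9 in ob/ob-Veh, and 2771 and 1356 in ob/ob-Rosi. Chil3 in iWAT stood at 1736 and 857 CPM in WT-Veh, at 269 and 0 in ob/ob-Veh, and at 2488 and 624 in ob/ob-Rosi. The ob/ob-Veh cells were thus lowest in iWAT, and in eWAT their replicates overlapped those of WT-Veh. Ccr2 in eWAT stood at 619 and 355, 1244 and 1624, and 816 and 733 CPM, with the ob/ob-Veh libraries above the 4 others. Plac8 stood at 1031 and 432, 1329 and 819, and 987 and 480.5 CPM in eWAT, where the groups overlapped.

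Gene levels within the gated cells were next compared between groups in eWAT, on UMIs summed over the cells of a library. The 9 cells labelled ob/ob-Veh replicate 2 were too few for the minimum of 10, so the ob/ob-Veh side was replicate 1 alone, assumed to vary like the other groups. Of 1490 genes tested with edgeR, 25 (1.68%) passed for ob/ob-Veh against WT-Veh, 15 (1.01%) higher and 10 (0.671%) lower. With the 9-cell library included none of 1287 passed, 91 had an unadjusted p under 0.05, and DESeq2 called 3 of 1490 in the fit without that library, 0 higher and 3 lower, so no higher gene named here passed DESeq2. Without ob/ob-Rosi replicate 1, which enters the estimate of the spread and the filter on low counts, 0 of 3143 genes passed edgeR and 132 had an unadjusted p under 0.05. The calls therefore describe 34 cells of 1 library, and the value of the 9-cell library follows that of replicate 1 wherever CPM are given.

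Arg1, Ccl24 and Retnla were among the higher genes. Arg1, arginase 1, had 0 and 0 CPM in the gated cells labelled WT-Veh, 853 and 109 in ob/ob-Veh and 0 and 28.5 in ob/ob-Rosi. It came from 10 of the 34 cells of ob/ob-Veh replicate 1 and from 1 of 9 in replicate 2, and against the limit of 3 counts over the group it was at least 32.2-fold higher than in WT-Veh (adjusted p = 8.44e-11, edgeR). Both ob/ob-Veh libraries lay above all 4 others.

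Ccl24, a chemokine for eosinophils, had 0 and 0, 509 and 40.9, and 38.0 and 19.0 CPM in the same order, from 14 of the 34 cells. It was at least 19.2-fold higher than in WT-Veh (adjusted p = 1.28e-06, edgeR), and the 9-cell library stood close to ob/ob-Rosi replicate 1. Retnla had 227 and 15.4, 2798 and 1365, and 247 and 14.3 CPM, with a log2 fold change of 4.62 ± 0.69 (adjusted p = 1.36e-08, edgeR). It was found in 29 of the 34 cells, although 1 cell held 57.4% of the UMIs. When cells of other lineages' gates were left out, WT-Veh replicate 2 kept 5 cells and fell under the minimum of 10. That fit set 17 cells of ob/ob-Veh replicate 1 against 18 of WT-Veh replicate 1, with the spread taken from ob/ob-Rosi. All 3 genes stayed higher in ob/ob-Veh there, Retnla by 3.75 on the log2 scale, and no call is read from it.

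The non-perivascular macrophages of these libraries are set beside them without a test. Retnla stood there at 2320 and 788 CPM in WT-Veh, 17359 and 10260 in ob/ob-Veh and 2354 and 449 in ob/ob-Rosi. Ccl24 stood at 47.5 and 49.6, 369 and 232, and 90.7 and 17.2, and Arg1 at 12.1 and 4.51, 112 and 5.04, and 5.50 and 5.74. For Retnla and Ccl24 both ob/ob-Veh libraries were above the 4 others in these cells too, and for Arg1 only replicate 1 was.

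Other higher genes were the monocyte chemokine Ccl2, at 165 and 46.3, 674 and 27.3, and 342 and 38.1 CPM, which was low in the 9-cell library. The immediate early gene Egr1 had 0 and 139, 839 and 150, and 418 and 328 CPM (log2 fold change 3.27 ± 0.65, adjusted p = 9.88e-05, edgeR). Zfp36 and the mannose receptor Mrc1 also passed. Of the 25 tested genes of the immediate early and heat shock list, which tissue digestion can raise, 2 were higher and 0 lower, with a list median of 0.76 on the log2 scale against 0.02 over all genes. The stromal genes Igfbp5, Dpt, Pi16 and Col6a3 were higher through 57.1% to 88.8% of their UMIs in 1 cell each.

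In the macrophage list 3 of 10 tested genes were lower (C1qa, C1qb and C1qc) and 0 higher, and in the lipid-associated macrophage list 2 of 6 were lower (Gpnmb and Trem2) and 0 higher. The list medians were -1.99 and -2.54 on the log2 scale. Trem2, a lipid receptor of macrophages, had 371 and 463 CPM in WT-Veh, 37.7 and 0 in ob/ob-Veh and 114 and 362 in ob/ob-Rosi (log2 fold change -3.56 ± 0.76, adjusted p = 0.00041, edgeR). Gpnmb, of the same lipid-associated program, had 350.5 and 185, 4.71 and 27.3, and 38.0 and 224. With 1 UMI in ob/ob-Veh replicate 1 and 29 in WT-Veh, its ratio was 54.3 (95% counting interval 9.01 to 2220). For both genes the ob/ob-Veh libraries lay below all others. For Gpnmb the gap between 27.3 CPM in ob/ob-Veh replicate 2 and 38.0 in ob/ob-Rosi replicate 1 rests on few counts. The gated cells of these libraries held 73269 and 52685 UMIs in all. In WT-Veh 1 cell held 37.9% of the Gpnmb UMIs. Without the cells of other lineages' gates, in the fit of WT-Veh replicate 1 against ob/ob-Veh replicate 1, Gpnmb stayed lower. Trem2 kept a log2 fold change of -3.08 on fewer cells there, and no call is read from that fit. No gated cell labelled ob/ob-Veh in eWAT stood in the gate of lipid-associated macrophages, while 8 labelled WT-Veh and 13 labelled ob/ob-Rosi did. Over the whole libraries that gate took 4149 of 14718 and 1604 of 6472 kept cells in WT-Veh, 90 of 9165 and 82 of 7751 in ob/ob-Veh, and 2469 of 9439 and 2794 of 10068 in ob/ob-Rosi. In the cells that met the rule but for Ly6c2, Trem2 had a UMI in 54.4% and 73.5% in WT-Veh, 12.4% and 15.6% in ob/ob-Veh, and 62.2% and 76.3% in ob/ob-Rosi, so it was lowest in ob/ob-Veh outside the gated cells as well, and the part of this in the gated cells was not tested.

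C1qa, of complement C1, had 227 and 1591 CPM, 108 and 232, and 493 and 823, and 1 WT-Veh cell held 71.9% of the WT-Veh UMIs. Without the cells of other lineages' gates its log2 difference moved from -3.33 to 0.0877. That fit also lacked WT-Veh replicate 2, the library at 1591 CPM, so the shift cannot be laid to those cells alone. For C1qb, with 55.9% of the WT-Veh UMIs in 1 cell, the log2 difference moved from -2.95 to -1.51 in the same fit, and no call is read from it. Ccl5 and Gzma, made by T and NK cells, were lower as well, at 330 and 664, 9.42 and 601, and 94.9 and 557 CPM for Ccl5, where the 9-cell library was as high as the others. No cell of ob/ob-Veh replicate 1 stood in the T and NK gate, and 2 of 9 did in replicate 2.

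Mgp, a matrix protein of stromal cells, had 1443 and 371, 56.5 and 27.3, and 2297 and 438 CPM (log2 fold change -3.94 ± 0.83, adjusted p = 0.000395, edgeR). It was spread over 35 of the 37 cells labelled WT-Veh with at most 8 UMIs in 1 cell, and in non-perivascular macrophages it stood at 1606 and 3085, 82.7 and 203, and 2167 and 1911 CPM. The ob/ob-Veh libraries were thus below the others in both classes, and whether Mgp was transcribed in the gated cells was not tested.

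**Figure D5:**
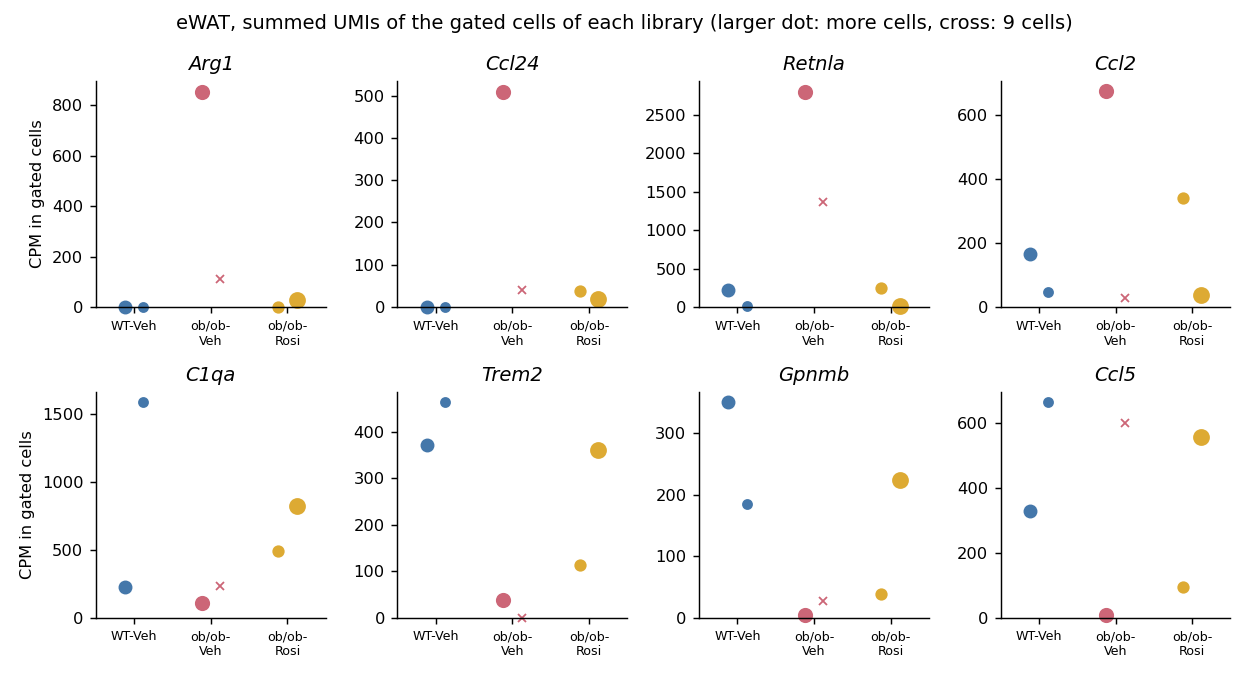
Level in CPM of 8 genes in the summed UMIs of the eWAT gated cells, by group, with a dot for each library (larger with more cells) and a cross for the library of 9 cells, ob/ob-Veh replicate 2. Arg1, Ccl24 and Retnla are highest in ob/ob-Veh replicate 1 (853, 509 and 2798 CPM), where Trem2 and Gpnmb are at 37.7 and 4.71 CPM.

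For ob/ob-Rosi against ob/ob-Veh in eWAT, 32 of 1490 genes (2.15%) passed, 11 (0.738%) higher and 21 (1.41%) lower. This comparison shares the ob/ob-Veh library with the one above, so opposite changes in both are not independent. Without ob/ob-Rosi replicate 1 no gene passed edgeR, and without replicate 2 of that group 9 did. Arg1 was lower (log2 fold change -5.26 ± 0.71, adjusted p = 2.44e-10, edgeR), as was Retnla (-4.79 ± 0.68, adjusted p = 2.34e-09). Gpnmb, with 1 UMI in ob/ob-Veh and 49 in ob/ob-Rosi, was higher with a ratio of 39.6 (95% counting interval 6.78 to 1590). Of the ob/ob-Rosi UMIs of Gpnmb, 46.9% were in 1 cell, and the replicates of that group lay apart, as given above. Trem2 was higher by 2.74 ± 0.74 on the log2 scale (adjusted p = 0.0148), and without the cells of other lineages' gates by 2.61, which did not pass (adjusted p = 0.124, edgeR).

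Mmp12, an elastase of lipid-associated macrophages, had 0 and 0 CPM in ob/ob-Veh and 171 and 228 in ob/ob-Rosi, where 22 of 61 cells held it, although 1 cell held 54.4% of the UMIs. It was at least 15.3-fold higher (adjusted p = 0.0461, edgeR). Of the 6 tested genes of the lipid-associated macrophage list 3 were higher (Gpnmb, Mmp12 and Trem2) and 0 lower, with a list median of 2.49 against 0.08 over all genes. The list of PPAR and lipid handling, which shares Gpnmb and Trem2, had no other called gene among 14. In the cytokine and NF-κB list Ccl2 was lower and no gene of 16 was higher, and the chemokine receptor Cxcr4, Socs3, Zfp36 and Hif1a were lower too.

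The plasma-cell genes Igkc, Ighm, Mzb1, Iglc2 and Jchain were lower, each with 78.9% to 100% of its ob/ob-Veh replicate 1 UMIs in 1 barcode. With the 9-cell library included none of 1287 genes passed edgeR and 103 had an unadjusted p under 0.05. DESeq2 called 1 of 1490, Mgp, whose log2 fold change by edgeR moved from 4.55 to 2.26 without the cells of other lineages' gates and did not pass there (adjusted p = 0.0872).

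For ob/ob-Rosi against WT-Veh in eWAT, 19 of 1490 genes (1.28%) passed, 13 (0.872%) higher and 6 (0.403%) lower. Without ob/ob-Rosi replicate 1 or ob/ob-Veh replicate 1 none passed edgeR, 11 did without WT-Veh replicate 1 and 2 without WT-Veh replicate 2. Among the higher genes were the basement membrane collagen Col4a1 and the collagen chaperone Serpinh1, and 3 of 7 tested genes of the stromal list were called (Col1a1, Col1a2 and Col3a1). Col3a1 had 495 and 710 CPM in WT-Veh, 711 and 123 in ob/ob-Veh and 5922 and 1061 in ob/ob-Rosi (log2 fold change 2.39 ± 0.62, adjusted p = 0.0158, edgeR). The stromal list summed to 15242 CPM in ob/ob-Rosi replicate 1 and to 573 to 4838 CPM in the other 5 eWAT libraries. Without the cells of other lineages' gates the Col3a1 difference turned to -1.43. That fit also lacked WT-Veh replicate 2, which kept 5 cells, so no call is read from it. DESeq2 called 2 genes with the cells of other lineages' gates kept. Of the 6 lower genes Igkc and Ighm had 99.9% and 99.4% of their WT-Veh UMIs in 1 barcode each. Lyz1 was lower, at 61.8 and 432, 273 and 123, and 0 and 33.3 CPM, with 83.9% of the WT-Veh UMIs in 1 cell.

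The monocyte markers outside the rule did not pass in any eWAT comparison, with 0 of 12 tested genes called by edgeR in each and 2, 1 and 0 at an unadjusted p under 0.05. The list median was 0.50 for ob/ob-Veh against WT-Veh, -0.22 for the rosiglitazone-treated against the vehicle-treated ob/ob mice and 0.00 for ob/ob-Rosi against WT-Veh on the log2 scale. Thbs1 stood at 1917 and 139, 1743 and 505, and 1405 and 309 CPM in the 3 groups, with a wider gap between replicates than between groups. Gsr, Vcan and Hp likewise overlapped between groups. Of 78 ribosomal protein genes and 56 nuclear genes of the respiratory chain 0 were called by edgeR in any of the 3 comparisons, nor were any of 6 MHC class II genes, and of all these 3 respiratory chain genes had an unadjusted p under 0.05 for ob/ob-Rosi against ob/ob-Veh.

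In iWAT, with all libraries in and low counts filtered, no gene passed edgeR in a comparison between groups, and without the filter 16, 21 and 29 did in the order given next. For ob/ob-Veh against WT-Veh, on 5 and 3 cells against 15 and 15, 0 of 1394 genes were called (0%), 198 had an unadjusted p under 0.05, and DESeq2 called 2. For ob/ob-Rosi against ob/ob-Veh 0 of 1394 were called (0%), with 163 at an unadjusted p under 0.05 and 0 called by DESeq2. For ob/ob-Rosi against WT-Veh, the comparison with at least 15 cells in each library, 0 of 2004 were called (0%), with 96 at an unadjusted p under 0.05 and 0 by DESeq2. Leaving out a library gave calls, 6 without ob/ob-Veh replicate 1 for the first comparison, 2 without ob/ob-Veh replicate 2 for the next, and 51, 55, 11 and 17 for ob/ob-Rosi against WT-Veh without WT-Veh replicates 1 and 2 and ob/ob-Rosi replicates 1 and 2. In each of these 1 group was left with a lone library, assumed to vary like the others.

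The gene with the lowest p for both effects in iWAT was Lgals3, galectin-3, a lectin of macrophages. It had 3083 and 3313 CPM in WT-Veh, 107 and 331 in ob/ob-Veh and 1489 and 3766 in ob/ob-Rosi, with adjusted p = 0.267 and 0.367 by edgeR. The ob/ob-Veh libraries lay below the 4 others, on 9 UMIs in 8 cells, and all 8 stood in the stromal gate, against 2 of 15 in each WT-Veh library and 19 of 43 and 9 of 20 in ob/ob-Rosi. The stromal gate also took most kept cells of the iWAT ob/ob-Veh libraries, and the part of this in the differences was not tested. In the non-perivascular macrophages Lgals3 had 930 and 1548, 256 and 263, and 1337 and 1959 CPM. Rps3, a ribosomal protein, had 1736 and 2952, 537 and 709, and 1868 and 2417. By edgeR, 32 of 78 ribosomal protein genes had an unadjusted p under 0.05 for ob/ob-Veh against WT-Veh, beside 198 of all 1394 genes. Their list median was -0.91 against -0.05 over all genes, and none of them passed after adjustment. The gated cells of ob/ob-Veh replicates 1 and 2 held a median of 12.1% and 3.58% mitochondrial UMIs. The medians were 8.27% and 3.34% in WT-Veh and 3.53% and 2.06% in ob/ob-Rosi. The part of cell quality in these levels was not tested.

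For ob/ob-Rosi against WT-Veh in iWAT the lowest p values were those of Timp4, Ugdh, Flt1 and Gpihbp1, none of which passed. Timp4, an inhibitor of metalloproteinases, averaged 222 CPM in ob/ob-Rosi and 4.76 in WT-Veh, and Ugdh, which makes UDP-glucuronate, 294 and 29.2. Gpihbp1, which anchors lipoprotein lipase in capillaries, had 89.8 and 19.0 CPM in WT-Veh, 0 and 756 in ob/ob-Veh and 538 and 748 in ob/ob-Rosi, and Flt1, a receptor for VEGF, had 0 and 19.0, 0 and 662, and 261 and 257 (adjusted p = 0.291 for all 4, edgeR). The endothelial list summed to 2024 and 2222 CPM in ob/ob-Rosi and to 419 and 314 CPM in WT-Veh. Of the gated cells 6 and 1 stood in the endothelial gate in ob/ob-Rosi, and 3 and 0 in WT-Veh.

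Between depots, 101 of 4803 genes (2.1%) passed edgeR in the fit with the group as a term, 91 (1.89%) higher and 10 (0.208%) lower in iWAT. Only libraries with 20 or more gated cells entered, and of these the group labelled ob/ob-Rosi alone was present in both depots, so the difference rests on ob/ob-Rosi replicates 1 and 2 in iWAT (43 and 20 cells) and replicate 2 in eWAT (43 cells). The spread came from the 2 iWAT libraries, with 1 residual degree of freedom, and the lone eWAT library was assumed to vary like them. The endothelial list led, with 7 of 7 genes higher in iWAT and a median of 4.62 on the log2 scale against 0.07 over all genes. Cdh5, the cadherin of vessels, had 249 and 125 CPM in these iWAT libraries and 0 in eWAT ob/ob-Rosi replicate 2. The list summed to 171 CPM in that eWAT library, where 0 of 43 cells stood in the endothelial gate, against 6 of 43 and 1 of 20 in iWAT.

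Other genes higher in iWAT were Ptprb, Kdr and S1pr1 of endothelial cells, Igfbp5 of stromal cells, and Fabp4, Cd36 and Mgll of lipid handling. Fabp4, a fatty acid binding protein of capillaries, adipocytes and macrophages, had 11077 and 6386 CPM in iWAT ob/ob-Rosi and 695 in eWAT ob/ob-Rosi replicate 2. Spp1 (osteopontin) was lower, with 0 UMIs in the 63 iWAT cells labelled ob/ob-Rosi, although it stood at 120 and 76.2 CPM in iWAT labelled WT-Veh. At a minimum of 10 cells per library 25 of 3191 genes passed. DESeq2 called 3 of 4803. Of the monocyte list 0 of 13 genes were called by edgeR, with 4 at an unadjusted p under 0.05 and a median of 0.54.

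Whether an effect differed between depots was tested with the interaction of depot and group, on all 12 libraries. For the ob/ob effect 0 of 1782 genes (0%) passed edgeR, 94 had an unadjusted p under 0.05, and DESeq2 called 0. For the effect of rosiglitazone 0 of 1782 (0%) passed, with 91 at an unadjusted p under 0.05 and 0 by DESeq2. These tests had 3 to 43 cells behind each sum, and their power was not simulated.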

How the data were processed

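Single-cell 3-prime libraries (10x Genomics, v3.1 chemistry) of the stromal vascular fraction were made from 12 samples, and the authors deposited the UMI counts per gene and barcode that Cell Ranger 3.0.2 wrote on mm10, after bcl2fastq 2.19.1.403, per the submitters' processing notes. Libraries were not integrated, and neither doublets nor free RNA were corrected. Of 139755 barcodes 126095 were kept. The gated cells and the gene lists were chosen with earlier results of these data known.

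UMI counts were summed over the gated cells of a library, leaving out the 11 genes of the rule, and tested with edgeR 4.0.16 (TMM, filterByExpr, quasi-likelihood test, Benjamini-Hochberg) in R 4.3.3, with DESeq2 1.42.0 as an alternative. The limits for a call were 0.05 on the adjusted p and 1.1-fold on the change. The planned minimum of 20 cells per library could not be fitted within a depot, so 10 cells were used there, and no minimum for the iWAT comparisons with ob/ob-Veh and for the interaction. Libraries of 5, 3 or 9 cells entered only where said. Cells are not replicates, and libraries are. Named genes were the 8 called genes with the largest change per direction at 50 CPM or more (200 CPM against non-perivascular macrophages) without overlap of the groups, or, where fewer than 5 were called, the 8 with the lowest p. Of the list genes, 2 to 4 examples were named, and Zfp36, Mrc1, Ccl2, Cxcr4, Socs3 and Hif1a as called members of lists. Groups at 0 UMIs were set to a floor of 3 counts over the group. Shares carry 95% Wilson intervals, and intervals and floors cover counting error only. Cells were thinned to 700 UMIs to compare shares across depths. On simulated counts for eWAT ob/ob-Veh against WT-Veh (1360 genes), edgeR recovered 34.0% of genes changed 2 and 72.4% of genes changed 3 on the log2 scale. Figures and tables used Python 3.11.15, pandas 2.3.3, scipy 1.17.1 and matplotlib 3.10.9. Ly6c1 and Ly6c2 coordinates came from the GENCODE annotation of GRCm38. The values of 1 gene of the monocyte list are not reported here.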

Additional observations from a re-analysis of the deposited data

How the results depend on the processing

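Limits were 3 to 43 cells per library, 2 libraries per group, a lone ob/ob-Veh library in the eWAT gene comparisons and 123 of 242 cells in another lineage's gate, and they were not ranked. With the obesity contrast (ob/ob-Veh against WT-Veh) first, the drug contrast (ob/ob-Rosi against ob/ob-Veh) next and ob/ob-Rosi against WT-Veh last, the eWAT counts of called genes (25, 32 and 19) came to 3, 1 and 2 with DESeq2, 0, 0 and 0 after thinning to 700 UMIs or with no minimum of cells, and 8, 20 and 0 without barcodes of another lineage's gate, a setting added after the data were seen, as was the one with no minimum. The setting without barcodes of another lineage's gate left WT-Veh replicate 1 and ob/ob-Veh replicate 1 alone in their eWAT groups. Library size alone gave 18 for ob/ob-Rosi against ob/ob-Veh. Leaving out 1 library gave 0 to 24, 0 to 38 and 0 to 19. In iWAT DESeq2 called 2 genes for ob/ob-Veh against WT-Veh, no filter on low counts called 16, 21 and 29, and leaving out 1 library gave 0 to 6, 0 to 2 and 11 to 55. Between depots, DESeq2 called 3, thinned cells 0, a minimum of 10 cells 25 and no minimum 5, and leaving out an eWAT library labelled WT-Veh or ob/ob-Veh gave 98, which bears little on stability since these groups have no iWAT library in that fit. Without the filter the interactions had 8 and 7 calls, and 0 without any 1 library. Against non-perivascular macrophages DESeq2 called 36 in eWAT and 25 in iWAT, thinned cells 55 and 12, no filter 196 in eWAT, and leaving out 1 eWAT library gave 8 to 115. The cause of these shifts was not tested.

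The log2 differences in share turned to -0.87, -0.33 and 0.22 with thinned gates (eWAT ob/ob-Veh against WT-Veh, eWAT ob/ob-Rosi against WT-Veh, and iWAT ob/ob-Veh against WT-Veh). As a share of myeloid cells, eWAT ob/ob-Rosi against ob/ob-Veh was -0.62, and without barcodes holding other-lineage UMIs iWAT ob/ob-Rosi against WT-Veh was -0.92. In iWAT, ob/ob-Veh against WT-Veh passed at bounds of -1.10 without barcodes holding other-lineage UMIs and -1.76 without other gates, and ob/ob-Rosi against ob/ob-Veh at 2.31 with DESeq2 and a bound of 1.96 without other gates. The bounds rest on 0 cells in ob/ob-Veh, and both filters take every cell of the stromal gate. They cannot be told apart from the stromal share of the libraries. Leaving out 1 library gave -0.54 to 1.12, -0.36 to 1.40 and 0.16 to 1.32 in eWAT and -1.49 to -0.65, 1.03 to 2.97 and -0.0590 to 1.89 in iWAT, with reversals at -0.54 without ob/ob-Veh replicate 1, -0.26 without ob/ob-Veh replicate 2, -0.36 without ob/ob-Rosi replicate 2 and, in iWAT, -0.0590 without ob/ob-Rosi replicate 1. C1qa (ob/ob-Veh against WT-Veh) turned to 0.0877 and Col3a1 (ob/ob-Rosi against WT-Veh) to -1.43 without other gates, and Sptbn1 in iWAT to -0.22 with 2 or more Ly6c2 UMIs. The eWAT fit without other gates also lost WT-Veh replicate 2, so the turns of C1qa and Col3a1 cannot be laid to the removed cells alone. In eWAT and between depots, gene fits at 2 or more Ly6c2 UMIs, or without barcodes holding other-lineage UMIs, had too few cells and were not run.

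The labels number the replicates without saying that a number joins samples. With the replicate block, 17, 29 and 21 genes were called in eWAT and 0, 0 and 0 in iWAT, and the shares differed by 0.50, 0.40 and 0.90 in eWAT and by -1.22, 2.18 and 0.97 in iWAT, so no share passed or lost the threshold.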
